A study of Mus musculus with 12 samples.

Results

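Rsg1 mutant and wild type mouse embryonic fibroblasts were compared at fortified folic acid, 3 libraries against 3, which is 6 of the 12 libraries of the study. The members of the comparison were the libraries that the submitters' titles name as fortified mutant 1 to 3 and fortified wild type 1 to 3. Fibroblasts are the matrix-producing cells that grow out when an embryo is dissociated and plated, and these were primary cells from embryos at embryonic day 12.5. The mutant embryos were homozygous for the allele L3P (genotype Rsg1L3P/L3P). The wild type embryos carried no named allele. All 6 libraries came from F3 mice on a diet with 10 ppm folic acid, and the cells grew in DMEM with 3600 ng/mL folic acid. The other 6 libraries held the same genotypes from mice on 2 ppm folic acid, with cells in medium at 225 ng/mL, called moderate folic acid here. Diet and medium differed together, and their parts cannot be told apart. Nothing in the labels states that replicate libraries are different embryos, so p values measure only the spread between libraries. The sex-linked transcripts described below differ between wild type 1, wild type 2 and wild type 3, so these were not repeats of the same cells. They do not tell the 3 mutant libraries apart, and there the spread may be technical. Polyadenylated RNA was sequenced, and values are in CPM, estimated counts per 1000000 after TMM scaling, unless another unit is named. Wherever 3 values follow each other, they belong to libraries 1, 2 and 3 of that genotype.

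Rsg1 encodes a small GTPase that works with the CPLANE proteins Intu, Fuz, Wdpcp and Cplane1 at the base of the primary cilium. CPLANE helps to recruit the intraflagellar transport machinery that builds the cilium, the organelle on which Hedgehog signals are received and Gli transcription factors are processed. Loss of this machinery in mouse embryos is known for defects of the neural tube, limbs and skeleton, and folic acid intake is known to alter the risk of neural tube defects. Fibroblasts in culture carry primary cilia and respond to Hedgehog, Wnt and TGF-beta ligands, and their most abundant products are collagens and other matrix proteins.

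The 6 libraries held 44068572 to 48475920 counts, and TMM factors lay between 0.91 and 1.02. A pair of mutant libraries stood apart. On the first principal component of the 6 libraries (43.7% of variance) mutant 2 and mutant 3 lay at 53.5 and 57.3, while mutant 1 lay at -41.8 and wild type 1, 2 and 3 at -23.9, -13.9 and -31.1. The log2 CPM of mutant 2 and mutant 3 correlated at 0.986 across the tested genes. Mutant 1 correlated with them at 0.956 and 0.956, and with wild type 3 at 0.989, the highest of all pairs of these libraries. These correlations are across genes, which are not independent replicates. The comparison below thus joins a mutant library close to wild type 3 with a pair that resembled each other. The profile of that pair was not confined to mutants. Moderate wild type 1 correlated with mutant 2 and mutant 3 at 0.975 and 0.982. With moderate wild type 2 and 3 it correlated at only 0.922 and 0.928. List medians are given for mutant 1 alone where the mutant pair moved them. Neither the labels nor the gene counts allow a check of the genotype of mutant 1, so each value for mutant 1 alone rests on its label. Sex-linked transcripts were not balanced between the genotypes. Xist was present in mutant 1, 2 and 3 and wild type 1 (19961 to 33346 counts) and nearly absent in wild type 2 and 3 (9 and 1 counts). The Y-linked genes Ddx3y, Eif2s3y and Uty had 6203, 2662 and 1153 counts in wild type 3 and 0 in the other 5, so that wild type 2 held neither kind of transcript.

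Fibroblast identity was clear in all 6 libraries. The 15 fibroblast markers summed to 28993, 21188 and 22713 CPM in the mutant and 46738, 36611 and 38134 CPM in the wild type libraries. Transcripts of other cell types were present as well. The 31 skeletal muscle markers in the table summed to 1532, 6616 and 4643 CPM in mutant and 1839, 1021 and 3153 CPM in wild type libraries. The 11 erythroid markers in the table summed to 0.422, 11.7 and 14.3 CPM against 1.00, 0.295 and 0.415 CPM, and 2 of them had 0 counts in all 6 libraries. Muscle and erythroid transcripts were thus highest in mutant 2 and mutant 3, and their part in the results below was not tested except by leaving those libraries out.

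Rsg1 itself (symbol Cplane2 in RefSeq, chr4:141213940-141220114 of GRCm38.p6) was close to the lower end of detection. It measured 0.738, 0.669 and 0.866 CPM in the mutant and 1.03, 0.725 and 0.895 CPM in the wild type libraries. The groups overlapped, and the log2 fold change of mutant over wild type was -0.22 (SE 0.38). The labels name an allele and no deletion, so this level is no check of the genotype.

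No gene passed at an adjusted p of 0.05 in edgeR's quasi-likelihood test over 15186 genes (0.0%), and the lowest adjusted p was 0.939. At an unadjusted p under 0.05 there were 500 genes (3.29%), 192 with a positive (1.26%) and 308 with a negative log2 fold change (2.03%). The share of 3.29% is less than the threshold of 0.05 itself. For 1561 genes (10.3%) all 3 libraries of one genotype lay outside the range of the other. A share close to this also arises when the order of 3 against 3 libraries is random. In 707 of these (4.66% of tested genes) the mutant libraries were above, and in 854 (5.62%) they were below. Scaling by library totals alone turned that split around, to 1199 above and 548 below. Log2 fold changes were positive for 7744 genes (51.0%) and negative for 7441 (49.0%), with a median of 0.0069. Limma-voom with library quality weights also passed no gene, with 3740 at an unadjusted p under 0.05. DESeq2 passed 6 of 15163 genes (0.0396%), all lower in mutant cells. Ddx3y, Eif2s3y and Uty had counts in wild type 3 alone. Amd1, an enzyme of polyamine synthesis, had 390 counts in wild type 2 and 0 in the other 5 libraries. ChkbCpt1b, a readthrough gene model, had 100 counts in wild type 2, 11 in wild type 3 and 0 elsewhere. The sixth was Col10a1, described with the bone genes. Single-gene values below, and the lack of overlap in a gene, are therefore descriptions of 6 libraries. No gene is said to rise or fall.

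Most genes of the extracellular matrix had lower values in mutant libraries. Of 31 tested collagen chains 23 had a negative log2 fold change, with a median of -0.48, and for 11 all mutant libraries lay below all wild type ones, against 0 above. Of 45 other matrix proteins 41 were negative (median -0.51, 13 below and 0 above). Of 34 matrix processing enzymes 30 were negative (median -0.48, 13 below and 0 above). Across all tested genes 5.62% lay below in this way. With mutant 1 as the only mutant library these medians were -0.39, -0.35 and -0.38. The sign was thus the same without mutant 2 and mutant 3. In the separate libraries at moderate folic acid, the same 3 medians were 0.55, 0.28 and 0.24.

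The fibrillar collagens build the main fibres of connective tissue. Col1a1, the main chain of type I collagen, measured 7639, 5093 and 4934 CPM in mutant and 13919, 9121 and 10526 CPM in wild type libraries. All 3 mutant libraries lay below all wild type libraries, and the log2 fold change was -0.93 (SE 0.38, unadjusted p = 0.0301). Its partner chain Col1a2 measured 5997, 3031 and 2727 CPM against 9473, 6416 and 7470.2 CPM. Mutant 1 lay just under the lowest wild type value and the other two mutants well below it, with a log2 fold change of -0.99 (SE 0.39). Col5a1, which sets the diameter of type I fibrils, measured 1768, 1402 and 1712 CPM against 3946, 2963 and 2508 CPM and had the smallest p of the collagen chains after Col10a1 (0.00712, log2 fold change -0.95, SE 0.29). Here mutant 1 was the highest mutant library and still under every wild type library. Col11a1, its relative in cartilage and embryonic fibrils, measured 553, 513 and 393 CPM against 851, 659 and 803 CPM, a log2 fold change of -0.66. Col6a3, a chain of the beaded filaments around cells, measured 357, 214 and 342 against 1094, 557 and 473 CPM, and Col4a5 of basement membranes 44.3, 38.2 and 16.7 against 113, 121 and 51.6 CPM. Neither overlapped. Col3a1, by contrast, overlapped, because mutant 1 (3267, 1658 and 1931 CPM in mutant 1, 2 and 3) reached into the wild type range (3768, 2457 and 3699 CPM).

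The promoter of Col1a2 is shown because type I collagen is the main fibrillar collagen that fibroblasts secrete. The 250 bases before its start (chr6:4505368-4505617, plus strand, from RefSeq on GRCm38.p6) hold 1 CCAAT box, in capitals, the motif of the factor NF-Y.
Col1a2: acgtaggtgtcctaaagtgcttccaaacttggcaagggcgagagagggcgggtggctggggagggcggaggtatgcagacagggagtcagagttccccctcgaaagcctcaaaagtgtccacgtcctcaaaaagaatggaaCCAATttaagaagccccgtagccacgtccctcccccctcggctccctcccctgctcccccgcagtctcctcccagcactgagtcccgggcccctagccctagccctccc
The letters CCAAT, searched on both strands, occur in 9 of the 23 collagen chain promoters matched in the table (39.1%) and in 34.5% of all 27025 promoters of the same length. This share is close to the general one, and a match is a description of letters only.

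Among the other matrix proteins, fibronectin (Fn1), the adhesive protein on which collagen fibrils assemble, measured 6286, 6474 and 7911 CPM in mutant and 11540.3, 10309.8 and 10524 CPM in wild type libraries. The groups did not overlap, with a log2 fold change of -0.65 (SE 0.32, unadjusted p = 0.0642). Periostin (Postn), a matricellular protein of connective tissue, measured 1669, 627 and 884 against 2500.4, 2044 and 1792 CPM, a log2 fold change of -0.99 (SE 0.38). Mutant 1 was again the nearest to wild type. Fibulin 2 (Fbln2), which binds elastic fibres and basement membranes, measured 706, 489 and 381 against 2379, 1938 and 761 CPM, a log2 fold change of -1.69 (SE 0.62). Here wild type 3 sat near the mutant range and wild type 1 and 2 were far above it. Ltbp2, a binding protein of microfibrils, measured 237, 228 and 308 against 485, 557 and 348 CPM. Elastin (Eln) measured 1625, 848 and 1403 against 2003, 1700.3 and 1863 CPM, and Sparc, a collagen-binding glycoprotein, 3159, 2208 and 1798 against 3749, 3807 and 3452 CPM. For each of these 3 genes every mutant library lay below every wild type library. Decorin (Dcn) and lumican (Lum), small proteoglycans on collagen fibrils, did not separate the genotypes. Lum stood at 193, 18.9 and 24.4 CPM in mutant and 80.8, 34.5 and 159.5 CPM in wild type libraries, with mutant 1 the highest of all 6.

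The enzymes that fold and trim collagen lay on the same side. P4ha1, a catalytic subunit of prolyl 4-hydroxylase, measured 204, 191 and 221 CPM in mutant and 323, 318 and 243 CPM in wild type libraries, without overlap (log2 fold change -0.52, SE 0.21). Adamts14, a procollagen N-propeptidase, measured 23.5, 19.9 and 21.6 against 38.5, 27.7 and 27.1 CPM, also without overlap (log2 fold change -0.52, SE 0.19). P4ha3, another prolyl hydroxylase subunit, measured 101, 49.6 and 62.1 against 129, 97.9 and 107 CPM, and there mutant 1 exceeded wild type 2. Loxl1 to Loxl4, which cross-link collagen and elastin, the collagen chaperone Serpinh1, the procollagen proteinase Bmp1, its enhancer Pcolce and the membrane protease Mmp14 were among the 13 enzymes with all mutant libraries below. The plot of matrix and fibroblast genes draws 12 genes without overlap and leaves out overlapping ones such as Col3a1 and Lum. That the mutant values lie under the wild type values in each follows from this choice.

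**Figure D1:**
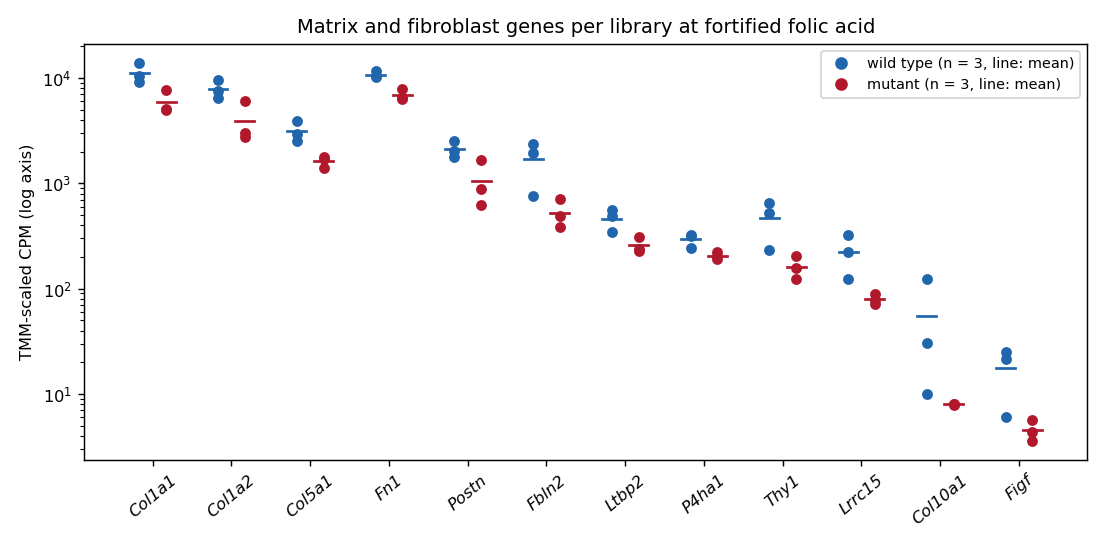
CPM on a log axis for 12 matrix and fibroblast genes, 1 point per library (red, mutant, n = 3; blue, wild type, n = 3), with a line at each group mean. Only genes without overlap are drawn, so the choice of genes puts every red point under every blue point of its gene. The margin is wider for Lrrc15 than for Col1a2, Postn and Fbln2.

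Several genes of the fibroblast surface and of fibroblast states gave larger ratios. Of 15 fibroblast markers 13 were negative (median -0.59, -0.35 with mutant 1 alone and -1.16 without mutant 1) and 6 lay wholly below. The share wholly below was 5.62% over all tested genes. The 6 were Col1a1, Col1a2, Fn1, Postn, Thy1 and Pdgfrb. Col1a1, Col1a2, Col3a1, Fn1, Dcn, Lum, Postn and Fap are also in the matrix lists above, so this list is no separate result. Thy1, a glycoprotein of the fibroblast surface, measured 203, 156 and 122 CPM in mutant and 651, 520.1 and 231 CPM in wild type libraries. Wild type 3 was close to mutant 1 while wild type 1 and 2 were far higher, and the log2 fold change was -1.54 (SE 0.46, unadjusted p = 0.00569). Lrrc15, a membrane protein of matrix-producing fibroblasts, measured 77.3, 71.4 and 89.5 against 324, 221 and 123 CPM, a log2 fold change of -1.49 (SE 0.42, unadjusted p = 0.00395). The mutants lay close to each other and the wild types spread widely above them. S100a4, a calcium-binding protein named for fibroblasts, measured 10.1, 24.7 and 27.3 against 118, 305 and 12.7 CPM, and its groups overlapped because wild type 3 lay at the level of the mutants. Pdgfra and Pdgfrb, the receptors of platelet-derived growth factor, stood at 141, 36.1 and 59.7 against 223, 89.2 and 118 CPM and at 307, 307 and 337 against 523, 416 and 358 CPM. Pdgfrb did not overlap and Pdgfra did. Vimentin (Vim), the intermediate filament of mesenchymal cells, overlapped, with 2412, 3353 and 3210.4 against 3077, 4155 and 2444 CPM.

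In rankings here and below, gene models, clone names, the sex-linked genes of the gene list and multi-copy families were left out. Figf, which encodes the lymphatic growth factor VEGF-D, had the smallest p of the remaining non-overlapping genes that averaged 5 CPM or more in either genotype. It measured 5.69, 3.58 and 4.33 CPM in mutant and 25.0, 21.4 and 6.02 CPM in wild type libraries, a log2 fold change of -1.95 (SE 0.47, unadjusted p = 0.00133). Wild type 3 stood just above mutant 1, and wild type 1 and 2 were far higher. Its receptor gene Flt4 showed the same layout, with 2.40, 3.84 and 1.91 against 13.8, 16.6 and 5.06 CPM. The phospholipase receptor Pla2r1 measured 1.54, 1.45 and 0.661 against 6.72, 7.16 and 2.25 CPM (log2 fold change -2.14, SE 0.63). Ggta1, the galactosyltransferase that makes the alpha-Gal epitope, measured 28.9, 33.6 and 35.8 against 81.9, 70.5 and 37.0 CPM (log2 fold change -0.95, SE 0.26). In both, wild type 3 was again the wild type library nearest to the mutants. Lrig1, an inhibitor of growth factor receptors, and Rnf150, a membrane ubiquitin ligase, were more even across libraries. Lrig1 measured 45.8, 32.9 and 35.0 against 80.2, 58.4 and 47.9 CPM and Rnf150 56.7, 38.5 and 45.9 against 90.2, 77.5 and 64.5 CPM, log2 fold changes of -0.71 (SE 0.22) and -0.72 (SE 0.21). Fuca1, the lysosomal fucosidase, was among the most even, with 48.5, 39.4 and 46.9 against 64.9, 55.8 and 76.6 CPM (log2 fold change -0.55, SE 0.17).

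Bone genes split by library. Of 20 tested bone and mineralization genes 14 were negative (median -0.37, 0.02 with mutant 1 alone and -0.84 to -0.21 with 1 library left out). Col10a1, the collagen of hypertrophic cartilage, measured 7.93, 8.07 and 8.00 CPM in the 3 mutant libraries and 30.8, 125 and 10.0 CPM in the wild type. The mutants were all but identical, wild type 3 was near them and wild type 2 was the highest by far. The log2 fold change was -2.79 (SE 0.68, unadjusted p = 0.00148), and DESeq2 gave an adjusted p of 0.0172. Ibsp, bone sialoprotein, measured 3.40, 1.58 and 1.03 against 10.5, 60.6 and 14.6 CPM, and the collagenase Mmp13 3.58, 1.21 and 0.433 against 4.58, 22.8 and 5.43 CPM. Both were lower in every mutant library and highest in wild type 2. The cartilage genes as a list were on the other side (19 of 21 positive, median 0.57), though only Cytl1, a secreted cartilage protein, lay wholly above, and Col11a1 lay wholly below. The median was 0.15 without mutant 1, 0.17 without wild type 2, 0.37 without wild type 1, 1.08 without wild type 3 and -0.48 with Xist as covariate. Col2a1, the cartilage collagen, measured 184, 427 and 372 CPM in mutant and 117, 163 and 188 CPM in wild type libraries, with mutant 1 inside the wild type range.

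On the higher side, 5 genes are described first, taken from the 15 of smallest p without overlap and with at least 5 CPM. Pbdc1, a conserved gene of the X chromosome, measured 60.9, 67.9 and 77.2 CPM in mutant and 42.7, 46.9 and 38.9 CPM in wild type libraries (log2 fold change 0.68, SE 0.21, unadjusted p = 0.0081). All mutant libraries were above and neither group spread widely. Lef1, a transcription factor of the Wnt pathway, measured 10.00, 6.47 and 8.13 against 3.40, 2.61 and 6.15 CPM (log2 fold change 1.02, SE 0.35), with mutant 1 the highest of the 6. Epb4.1, the membrane skeleton protein 4.1R, measured 59.6, 70.2 and 62.0 against 45.5, 48.6 and 49.3 CPM (log2 fold change 0.42, SE 0.15). Hnrnpc, a nuclear RNA-binding protein, measured 378, 420.4 and 439 against 263, 332 and 338 CPM, and Snhg3, a host RNA of small nucleolar RNAs, 10.2, 14.0 and 9.91 against 5.91, 8.20 and 6.77 CPM. In these 5 genes mutant 1 shared the higher level with the other mutants.

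Other non-overlapping genes on this side were highest in mutant 2 and mutant 3. Sept3, second by p on that list, a septin of neurons, measured 9.45, 22.8 and 15.9 CPM in mutant and 7.26, 6.57 and 7.29 CPM in wild type libraries (log2 fold change 1.19, SE 0.39). Stmn1, which destabilizes microtubules, measured 152, 173 and 181 against 90.5, 89.9 and 126 CPM, and Cadm2, a neural adhesion protein, 4.51, 8.24 and 7.47 against 2.84, 2.79 and 3.56 CPM. Mutant 1 was the lowest of the mutants in all 3 genes. Grik3, a kainate receptor, measured 2.24, 11.3 and 11.5 against 1.99, 2.13 and 2.20 CPM and Celf3, a neuronal RNA-binding protein, 1.35, 9.78 and 5.67 against 1.27, 1.27 and 0.96 CPM. In both, mutant 1 lay at the wild type level, and the log2 fold changes of 1.98 and 2.26 were the largest positive ones of the non-overlapping genes with at least 5 CPM. The plot of 30 genes sets these values beside those at moderate folic acid.

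**Figure D2:**
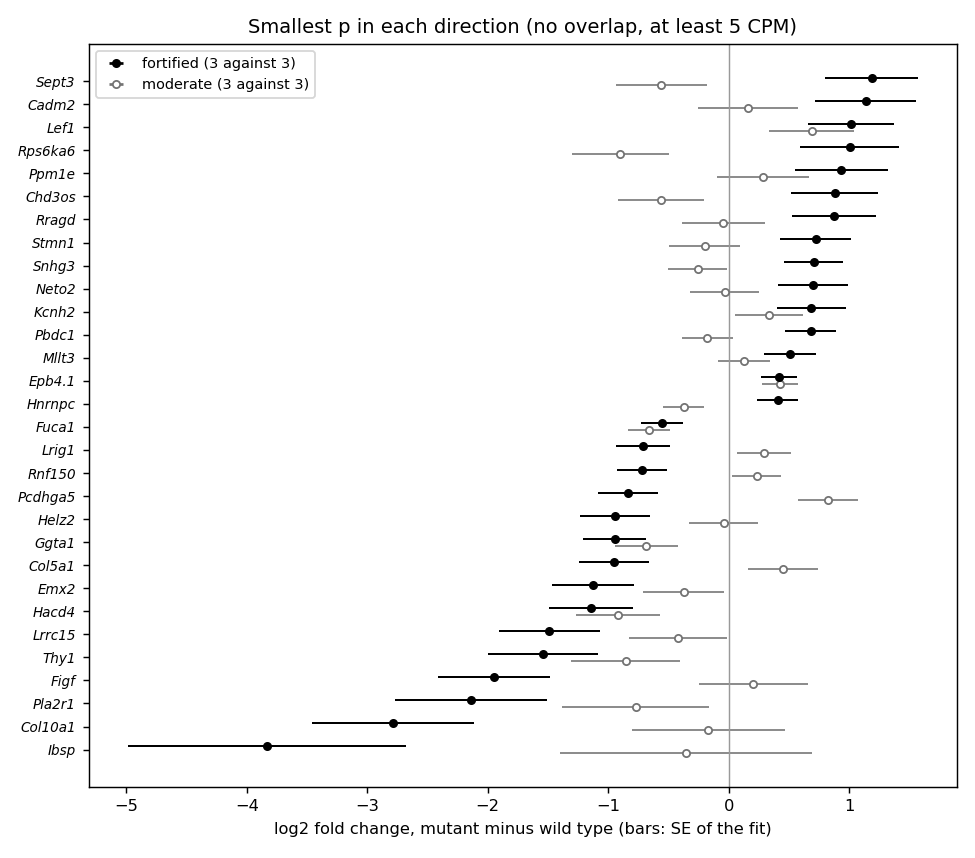
Log2 fold change of mutant over wild type with the SE of the edgeR fit for the 15 genes of smallest p in each direction whose fortified groups did not overlap and that averaged 5 CPM or more in either genotype. Gene models, clone names, listed sex-linked genes and multi-copy families were left out. Filled points are the 6 fortified libraries and open points the 6 moderate libraries. Lef1, Epb4.1, Fuca1, Ggta1 and Hacd4 sit on the same side at both levels, while Pcdhga5, Rps6ka6 and Hnrnpc sit on opposite sides.

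Few cilium genes separated the genotypes. None of the 10 CPLANE and partner genes had groups apart, and the median was -0.17 (-0.06 without mutant 2 and -0.05 without wild type 1). Intu measured 6.85, 5.78 and 7.97 CPM in mutant and 8.90, 5.58 and 6.96 CPM in wild type libraries, and Fuz, the CPLANE protein it binds, 8.77, 2.40 and 2.76 against 5.58, 3.60 and 5.96 CPM. Wdpcp, the third core member, measured 5.63, 2.89 and 2.37 against 4.15, 2.40 and 4.54 CPM. Mutant 1 was the highest of the mutants for Fuz and Wdpcp, and all 3 genes overlapped. 2410089E03Rik, the gene of Cplane1, measured 33.7, 32.8 and 41.6 against 52.7, 37.4 and 37.0 CPM (log2 fold change -0.23, SE 0.16). Cep164, a protein of the distal appendages of the basal body, had a log2 fold change of -0.39 (SE 0.25). Of 53 transport, BBSome and transition zone genes 34 were negative (median -0.10). Iqcb1 and Tmem216 of the transition zone lay above in all mutants, and the motor subunit Kif3b below. Iqcb1 measured 17, 20.2 and 21.9 against 12.1, 12.7 and 15.1 CPM (log2 fold change 0.56, SE 0.24). That is 3 of 53 genes without overlap, where 10.3% of all tested genes had none.

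Hedgehog genes did not share a direction (14 of 37 positive, median -0.03). Ptch1, the receptor and a target of the pathway, measured 11.4, 14.5 and 30.4 CPM in mutant and 16.5, 13.9 and 11.8 CPM in wild type libraries, with a high value in mutant 3 alone. Gli1, the other general target, measured 3.61, 1.40 and 1.96 against 8.51, 0.861 and 6.07 CPM, and wild type 2 had the lowest value of all. Gli2 and Gli3, the main effectors, had log2 fold changes of -0.05 (SE 0.22) and 0.0013 (SE 0.22). Hhip, a decoy receptor, measured 12.8, 14.0 and 31.2 against 10.1, 9.54 and 9.82 CPM, and the target Foxc2 37.7, 38.8 and 36.3 against 24.0, 21.3 and 34.9 CPM. These last 2 lay above in all mutant libraries, Foxc2 narrowly at wild type 3, and Disp1, which releases Hedgehog ligand, lay below (48.3, 42.3 and 44.0 against 64.9, 68.3 and 53.2 CPM).

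In the Wnt list 27 of 55 genes were positive. Wnt5a, a ligand of the planar polarity branch, measured 108, 62.6 and 88.5 CPM in mutant and 141, 122 and 113 CPM in wild type libraries. It lay below in every mutant (log2 fold change -0.54, SE 0.19, unadjusted p = 0.0149), while Lef1 and the ligand gene Wnt6 lay above. Of 51 BMP and TGF-beta genes 8 lay above and 1 below. The 8 were the antagonists Nog, Chrdl2 and Bambi, the signal transducers Smad1, Smad6 and Smad9, and the target genes Id1 and Id2. Noggin (Nog) measured 12.4, 15.1 and 21.6 against 6.04, 9.07 and 10.9 CPM (log2 fold change 0.92, SE 0.46). Id1 measured 87.9, 92.8 and 128 against 46.9, 61.2 and 66.0 CPM, and Smad6, an inhibitory Smad, 36.2, 37.8 and 45.8 against 23.1, 34.1 and 31.9 CPM. Across all genes 4.66% lay above. No gene of this list had an unadjusted p under 0.05.

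Of 49 guidance genes (semaphorins, ephrins, netrins, slits and their receptors) 26 were positive, with 1 wholly above and 4 wholly below. Over all tested genes the shares were 4.66% above and 5.62% below, so these counts do not set the list apart. Slit3, a ligand of Robo receptors, measured 85.0, 90.4 and 111 CPM in mutant and 309.9, 178 and 97.4 CPM in wild type libraries. Its groups overlapped at wild type 3, and the log2 fold change of -1.03 (SE 0.33) was -0.54 without wild type 1. Rgma, a repulsive BMP co-receptor, measured 21.6, 15.3 and 19 against 57.5, 26.5 and 22.2 CPM, and Sema5a 59.7, 38.0 and 66.1 against 118, 77.2 and 67.8 CPM. Both lay below in all mutants, narrowly. Dll1, a Notch ligand, measured 1.73, 6.43 and 9.91 against 1.51, 0.204 and 2.42 CPM, high in mutant 2 and mutant 3. Hes1, the Notch target, lay above in all mutant libraries (53, 57.5 and 56.4 against 50.4, 48.6 and 44.3 CPM), with a log2 fold change of 0.22 (SE 0.14).

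Of 41 neural tube closure genes 22 were positive and 19 negative, with a median of 0.0058. In 2 of them, Pax3 and Zic5, the mutants lay wholly above (4.66% of all genes), and in 4, Vangl1, Ptk7, Dvl1 and Prickle2, wholly below (5.62% of all genes). Pax3, a factor of the dorsal neural tube, measured 2.30, 1.79 and 1.64 CPM in mutant and 1.53, 0.227 and 1.20 CPM in wild type libraries. Zic2, a zinc finger factor needed for closure, measured 27.6, 18.8 and 26.0 CPM in mutant and 7.40, 4.01 and 22.0 CPM in wild type libraries, and its relative Zic5 2.72, 2.68 and 3.35 against 0.938, 0.34 and 2.49 CPM. In both genes wild type 3 was close to the mutants. Lrp2, an endocytic receptor of the neuroepithelium, measured 2.32, 14.7 and 11.4 against 16.8, 20.4 and 3.67 CPM, with no order by genotype. Ptk7, a receptor-like protein of planar cell polarity, measured 403, 341 and 369 against 502, 407 and 454 CPM, a log2 fold change of -0.29 (SE 0.20). Folate and one-carbon genes were evenly divided (19 of 37 positive, median 0.02). Ahcy, which clears S-adenosylhomocysteine, was the one with all mutants above, at 4.2, 4.45 and 5.6 against 3.29, 3.51 and 3.86 CPM. Tyms, which makes thymidylate from folate, measured 49.0, 58.8 and 85.4 against 39.2, 50.7 and 47.0 CPM and overlapped. The folate receptor Folr1 was at 0.211, 0.863 and 0.364 against 0.633, 1.45 and 0.284 CPM, and Mthfd1l, the mitochondrial formate enzyme, had a log2 fold change of -0.44 (SE 0.34).

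Of 61 limb, trunk and craniofacial patterning factors 37 were positive (median 0.12, and -0.04 to 0.35 with 1 library left out). In this list 2 lay wholly above and 1 wholly below, smaller shares than the 4.66% and 5.62% of all tested genes. The members described here, on the lower side, were high in wild type 1 and wild type 2. Dmrt2, a factor of somites, measured 1.01, 1.79 and 1.53 CPM in mutant and 9.27, 7.59 and 1.55 CPM in wild type libraries. Irx1 measured 16.6, 12.2 and 11.3 against 72.3, 36.4 and 12.6 CPM, and Irx2, its neighbour in the Iroquois cluster, 8.46, 9.13 and 6.72 against 36.7, 21.1 and 8.16 CPM. En1, a factor of the ventral limb and trunk dermis, measured 9.36, 8.01 and 6.31 against 28.6, 18 and 7.59 CPM. In all 4 genes wild type 3 lay at the mutant level. Emx2, a homeobox gene of limb girdle and kidney, followed the same layout without overlap, at 9.13, 6.65 and 6.06 against 21.8, 16.6 and 9.30 CPM (log2 fold change -1.12, SE 0.34). Log2 fold changes of the others were -2.09, -1.60, -1.44 and -1.19. Hox genes, which record position along the body axis, were divided (20 of 38 positive). Hoxa4, Hoxa5 and Hoxd10 lay above and Hoxc8 below in all mutants, 4 of 38 genes, a share near the 10.3% of all tested genes. Hoxc8 measured 17.6, 19.7 and 11.0 against 36.5, 26.7 and 19.9 CPM.

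Markers of muscle and neurons followed mutant 2 and mutant 3. All 30 tested muscle markers had a positive log2 fold change (median 1.14, and 0.72 to 1.80 with 1 library left out), but only 1 lay above in every mutant library, and with mutant 1 alone the median was -0.27. Myog, the factor of muscle differentiation, measured 60.4, 259 and 245 CPM in mutant and 48.8, 23.5 and 126 CPM in wild type libraries. Tnnc1, a troponin of slow muscle, measured 137, 585 and 364 against 99.0, 48.3 and 269 CPM, and the fast myosin light chain Mylpf 128, 565 and 334 against 118, 61.6 and 281 CPM. In each, wild type 3 was above mutant 1. The neuron markers had a median of 1.11, 0.65 without mutant 2 and -0.25 with mutant 1 alone. Elavl2 measured 4.45, 17.1 and 13.4 against 4.52, 6.03 and 4.04 CPM, whereas the adhesion gene Ncam1 went the other way in all libraries (263, 348 and 364 against 686, 488 and 390.1 CPM). Embryonic globin Hbb-y measured 0.0633, 5.57 and 5.42 against 0.109, 0.0453 and 0.175 CPM. Its level in wild type and in mutant 1 was near 0. In bulk RNA, fewer cells of a type and less RNA per cell cannot be told apart.

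Macrophage markers had lower values with and without that pair. All 15 had a negative log2 fold change (median -1.14, -1.03 with mutant 1 alone). In every mutant library 7 of them lay below, where 5.62% of all tested genes did. The markers summed to 72.5, 53.4 and 54.4 CPM in mutant and 222, 131 and 84.7 CPM in wild type libraries. Mrc1, the mannose receptor, measured 5.50, 1.68 and 2.28 against 20.1, 5.69 and 7.70 CPM, and C1qb, a complement chain made by macrophages, 4.98, 3.19 and 3.35 against 15.7, 8.36 and 8.10 CPM. Lyz2 overlapped, at 13.9, 5.70 and 8.79 against 47.3, 40.7 and 8.16 CPM, because wild type 3 lay among the mutants. Of 8 mesothelial markers 6 were negative (median -1.98) and 1 lay wholly below, where 5.62% of all tested genes did. Bnc1 measured 0.485, 1.79 and 0.683 against 5.06, 5.73 and 1.11 CPM, high in wild type 1 and 2. Gpm6a went the other way, with 6.22, 24.3 and 17.9 against 8.14, 5.94 and 5.32 CPM (log2 fold change 1.32, SE 0.57, unadjusted p = 0.0394), high in mutant 2 and mutant 3.

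Interferon and antigen presentation genes were lower in mutant 2 and mutant 3. Of 41 genes 37 were negative (median -0.43), yet the median with mutant 1 alone was 0.03. It was -0.81 without mutant 1 and -0.24 without mutant 3. Parp14 measured 1.03, 0.906 and 0.661 CPM in mutant and 3.80, 1.97 and 1.44 CPM in wild type libraries, and Ddx58, the RNA sensor RIG-I, 26.0, 18.9 and 15.9 against 36.2, 29.8 and 26.1 CPM. Both lay below in all mutants, Ddx58 very narrowly in mutant 1. Stat2, a subunit of the interferon-activated factor, measured 31.7, 18.5 and 20.6 against 40.9, 24.5 and 33.2 CPM, and B2m, the light chain of class I molecules, 279, 248 and 181 against 259.9, 391 and 268 CPM. These 2 overlapped, with mutant 1 among the wild types. In the separate libraries at moderate folic acid, 40 of the 41 genes were negative, with a median of -0.69.

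Promoters of 1 muscle gene and 2 interferon genes are shown because the lists they belong to had their highest or lowest scores in mutant 2 and mutant 3. They were chosen after the matches were seen. Each is the 250 bases before the start, plus strand, from RefSeq on GRCm38.p6. Capitals mark the letters CAGCTG, an E-box of myogenic factors, in Mylpf (chr7:127211358-127211607), and, for the core of the interferon-stimulated response element (GAAA, any 2 bases, GAAA, or the reverse complement), the match in Stat2 (chr10:128270248-128270497) and B2m (chr2:122147437-122147686).
Mylpf: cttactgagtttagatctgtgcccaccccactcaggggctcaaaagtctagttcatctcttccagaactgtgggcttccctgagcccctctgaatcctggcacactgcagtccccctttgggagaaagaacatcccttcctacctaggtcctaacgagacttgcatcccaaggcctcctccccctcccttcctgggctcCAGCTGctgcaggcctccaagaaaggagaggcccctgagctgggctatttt
Stat2: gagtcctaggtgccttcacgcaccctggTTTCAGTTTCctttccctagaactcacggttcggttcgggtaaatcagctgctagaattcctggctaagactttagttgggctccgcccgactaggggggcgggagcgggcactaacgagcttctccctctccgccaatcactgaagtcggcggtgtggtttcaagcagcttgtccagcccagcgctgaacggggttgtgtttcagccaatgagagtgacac
B2m: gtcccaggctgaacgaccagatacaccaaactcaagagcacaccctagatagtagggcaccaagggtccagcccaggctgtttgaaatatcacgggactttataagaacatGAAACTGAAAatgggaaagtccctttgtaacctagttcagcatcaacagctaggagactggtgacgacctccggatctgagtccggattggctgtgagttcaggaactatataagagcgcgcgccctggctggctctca
CAGCTG occurs in 9 of 23 matched muscle marker promoters (39.1%) and 12.8% of all 27025 promoters. The response element core occurs in 11 of 31 matched interferon gene promoters (35.5%) and 3.04% of all. The Stat2 promoter also holds CAGCTG, left in lower case, as do 4 of the 31 interferon gene promoters (12.9%). Both strands were searched, and these motifs do not overlap each other in the 3 promoters.

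**Figure D3:**
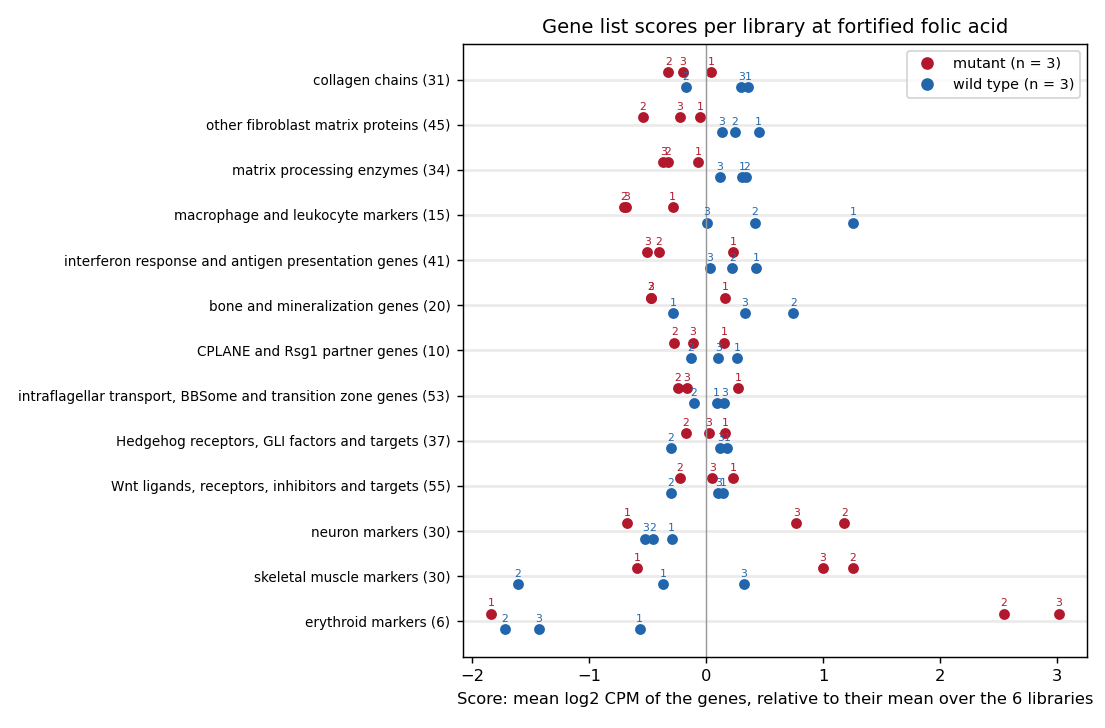
Score of 13 gene lists in each of the 6 libraries (red, mutant 1 to 3; blue, wild type 1 to 3), the mean log2 CPM of a list's tested genes relative to their mean over these libraries, with the number of genes in brackets. Mutant 2 and 3 stand to the right for neuron, muscle and erythroid markers, and all 3 mutants stand to the left of all wild types for other matrix proteins, matrix enzymes and macrophage markers.

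Scores per library show the same layout. For other matrix proteins they were -0.05, -0.54 and -0.23 in mutant and 0.45, 0.24 and 0.13 in wild type libraries on the log2 scale, and for matrix enzymes -0.07, -0.33 and -0.37 against 0.31, 0.34 and 0.11. Macrophage markers scored -0.29, -0.70 and -0.68 against 1.26, 0.41 and 0.01. In these 3 lists the genotypes did not overlap. Collagen chains scored 0.04, -0.32 and -0.20 against 0.35, -0.18 and 0.30, where mutant 1 exceeded wild type 2. Of the 48 list medians 14 kept their sign in all alternatives. Among them were the 3 matrix lists, the fibroblast markers, which share genes with them, and the macrophage markers. The cholesterol, glycolysis, ribosomal and respiratory genes also did so. The plot of list medians sets mutant 1 alone beside all 3 mutant libraries.

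**Figure D4:**
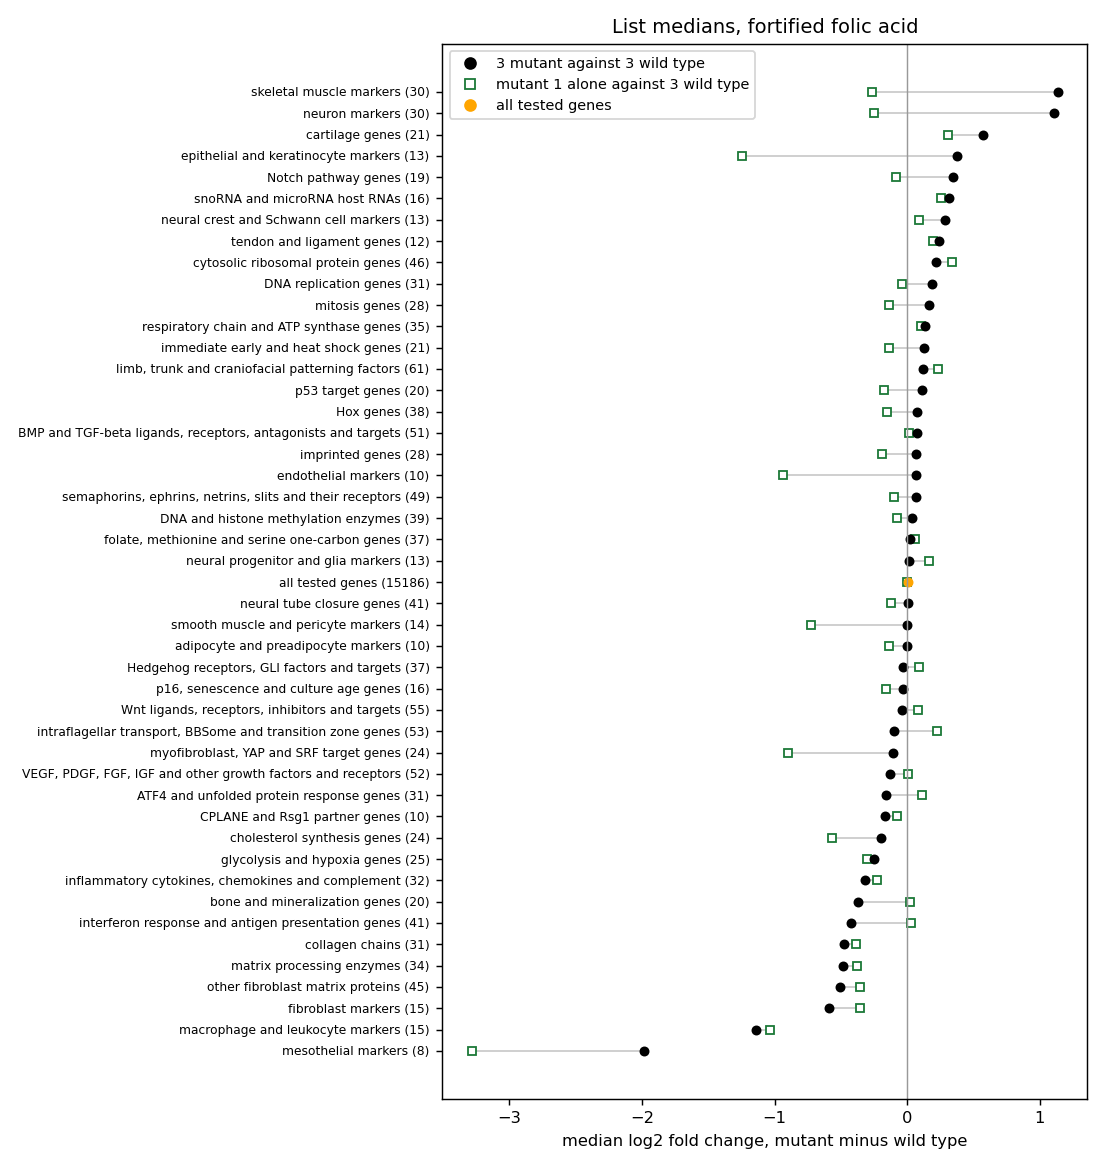
Median log2 fold change of mutant over wild type for each gene list (number of tested genes in brackets). Circles use all 3 mutant libraries and squares mutant 1 alone, and erythroid markers (almost no counts in mutant 1), hepatocyte markers (1 tested gene) and sex-linked genes are left out. Circle and square lie close together for collagens (-0.48 and -0.39) and far apart for muscle markers (1.14 and -0.27).

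Housekeeping programmes differed by small amounts. Of 46 cytosolic ribosomal protein genes 45 were positive (median 0.22, 0.34 with mutant 1 alone, 0.14 without mutant 1 and 0.088 without wild type 1), and 4 lay wholly above. The share wholly above was 4.66% over all tested genes. Rpl11 measured 1047, 1159 and 1009 CPM in mutant and 684, 910.2 and 973 CPM in wild type libraries, without overlap. Of 35 respiratory chain and ATP synthase genes 28 were positive (median 0.14, and 0.049 to 0.21 with 1 library left out, lowest without wild type 1), and Ndufb5 of complex I measured 77.9, 85.1 and 74.2 against 49.4, 66.5 and 72.2 CPM. Replication and mitosis genes had medians of 0.18 and 0.16, and -0.04 and -0.14 both with mutant 1 alone and without mutant 3. Cholesterol synthesis genes were negative in 23 of 24 (median -0.20, and -0.33 to -0.06 with 1 library left out, nearest 0 without mutant 1) and glycolysis genes in 23 of 25 (median -0.25). Aldoa, a glycolytic aldolase, measured 628, 664 and 525 against 820.4, 943 and 677 CPM and lay below in all mutants. Ezh2, the Polycomb methyltransferase, was the one of 39 methylation enzymes that lay above in all mutants (48.6, 54.2 and 75.0 against 43.7, 42.4 and 48.1 CPM). At moderate folic acid the ribosomal, respiratory, replication and mitosis lists had medians of -0.44, -0.38, -0.66 and -0.75, opposite in sign. The cholesterol and glycolysis medians there were -0.82 and -0.30.

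Whether the genotype difference depended on folic acid was tested by the interaction of the 2 factors. By edgeR no gene passed (0.0%, lowest adjusted p 0.708), and 1015 (6.68%) had an unadjusted p under 0.05. DESeq2 passed 8. Col11a1, low in mutants here, had a log2 fold change of 0.94 (SE 0.24) at moderate folic acid, and an interaction of -1.60 (SE 0.33, unadjusted p = 0.000457). The protocadherin Pcdhga5 measured 9.72, 5.74 and 6.63 CPM in mutant and 15.7, 11.3 and 12.4 CPM in wild type libraries at fortified folic acid, and 13.6, 13.3 and 10.7 against 5.82, 8.18 and 7.23 CPM at moderate. The order of the genotypes was opposite at the 2 levels, without overlap at either. For Itga11, a collagen-binding integrin, the fortified values were 150.4, 102 and 60.4 against 249, 115 and 201 CPM and the moderate values 126, 112 and 92.7 against 13.7, 34.4 and 43.3 CPM. For Cmklr1, the chemerin receptor, they were 24.9, 29.8 and 29.2 against 28.4, 29.2 and 30.9 CPM and 15, 18.5 and 14.6 against 7.96, 6.09 and 6.72 CPM, with an interaction of -1.29 (SE 0.24). Gins2, of the replicative helicase, had log2 fold changes of 0.24 here and -1.08 at moderate folic acid, and Cox7a2 of complex IV 0.40 and -0.96. Of all tested genes 6612 (43.5%) had the same sign at both levels.

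Some genes had 1 order at both levels, which share no library. In 56 genes (0.369%) the genotypes did not overlap in the same direction at either level, 22 with the mutants above and 34 below. More genes, 92 (0.606%), had opposite orders. Random order of the libraries also yields genes of both kinds, so the 56 are a description and no set of genotype effects. Fabp4, a fatty acid binding protein of adipocytes and macrophages, measured 2.49, 1.60 and 1.75 CPM in mutant and 4.12, 4.49 and 3.75 CPM in wild type libraries at fortified, and 1.17, 1.05 and 1.30 against 1.88, 2.70 and 2.96 CPM at moderate folic acid. Its log2 fold changes were -1.08 (SE 0.31) and -1.10 (SE 0.31). Ggta1 had -0.95 and -0.68, Lef1 1.02 and 0.69, Foxc2 0.49 and 0.85, and Zic5 1.21 and 1.44. Crip1, a small LIM protein, had -0.85 and -0.87. These 6 genes were chosen for their order after the values were seen.

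Of the 56 genes 7 (12.5%) start within 20 Mb of Rsg1 on chromosome 4, where 433 of the 15186 tested genes (2.85%) start. This window was chosen after the values were seen. They are Fuca1 (chr4:135920726-135940300), Epb4.1 (chr4:131923413-132075346), Map3k6, Sync, Lypla2, Tnfrsf25 and Stk40, and no other gene of chromosome 4 is among the 56. Fuca1 measured 36.4, 35.8 and 37.1 CPM in mutant and 48.3, 71.9 and 52.5 CPM in wild type libraries at moderate folic acid, with a log2 fold change of -0.66 (SE 0.18) there and -0.55 here. Epb4.1 measured 92, 103 and 87.3 against 84.5, 57.4 and 68.2 CPM at moderate, with 0.43 (SE 0.15) there and 0.42 here. Map3k6, a stress kinase, had -1.21 and -0.95 at fortified and moderate folic acid, and Sync, which encodes syncoilin, -0.57 and -0.41. Of the 433 genes in the window 51 (11.8%) did not overlap at fortified folic acid alone, near the 10.3% of all genes.

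**Figure D5:**
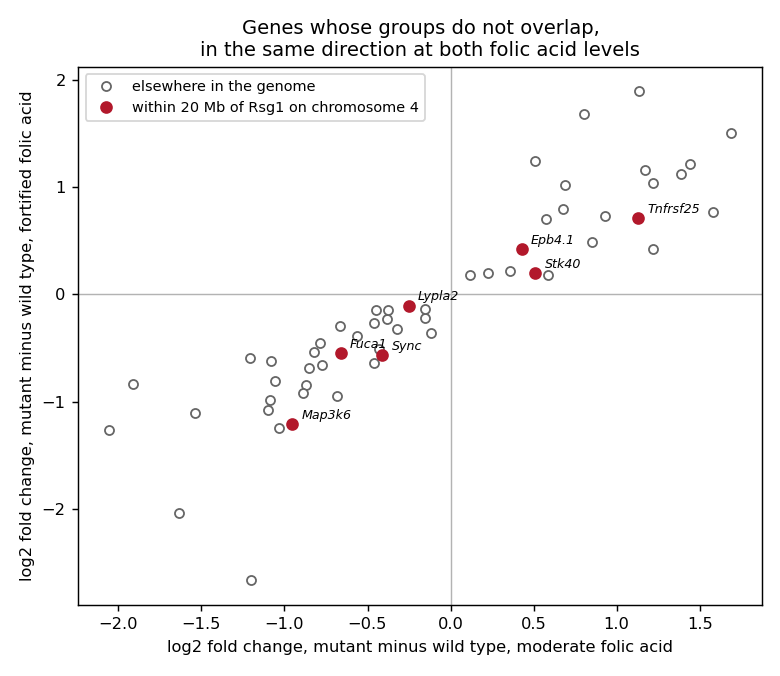
Log2 fold change of mutant over wild type at moderate (x axis) and fortified (y axis) folic acid for the 56 genes whose genotypes did not overlap in the same direction at both levels. Red points are the 7 genes that start within 20 Mb of Rsg1, 3 of them higher and 4 lower in mutant cells. The choice of genes puts all points in 2 quadrants.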

How the data were processed

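The authors deposited a table of expected counts and a table of TPM per gene, whose names carry salmon, per the file headers. The genome build was mm10 per the submitters' processing notes; the salmon version and the annotation are not given in the sources. RNA was extracted with trizol and chloroform and made into libraries with a TECAN Universal Plus mRNA-Seq kit, per the labels' protocols. The deposited TPM were used for alternatives only. Columns were tied to a diet through the matrix column number that each sample description gives, since the letters B and P in their names are unexplained.

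Expected counts were rounded to whole numbers. The filter was filterByExpr with a minimum count of 10 and a minimum total of 15, and 15186 of 24279 genes passed it. Counts were scaled by TMM and fitted with 1 mean per group over all 12 libraries by edgeR 4.0.16 (glmQLFit, glmQLFTest) in R 4.3.3, with Benjamini-Hochberg adjustment and a threshold of 0.05. The common biological coefficient of variation was 0.332, so for genes above about 5 CPM counting error was small beside the spread between libraries. This does not hold for genes with few counts, such as Folr1 and Hbb-y. Log2 CPM used a prior count of 2. Groups were said not to overlap when the lowest library of one exceeded the highest of the other.

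The comparison, gene lists and rule for named genes were chosen with earlier results of these data known. By that rule the text names the 15 genes of smallest p and the 8 of largest log2 fold change in each direction without overlap and with at least 5 CPM, the genes DESeq2 1.42.0 passed, up to 4 of smallest p per list, CPLANE, Hedgehog and folate genes, and genes of the interaction. Gene models, clone names, marked pseudogenes, listed sex-linked genes and multi-copy families were left out of the rankings by p, fold change and interaction. From the named genes a selection is printed, and other list members were named after their values were seen. Limma 3.58.1 served for further alternatives. The edgeR procedure was also run on simulated counts, drawn independently for each gene and library. Such counts lack the profiles that libraries share here, so that run is no check of the procedure on these data. A list is described by its counts and median beside those of all tested genes.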

Additional observations from a re-analysis of the deposited data

How the results depend on the processing

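Depth does not limit genes above about 5 CPM, while 3 libraries a group and the spread between them do. The count of passing genes was 0 by edgeR or limma under each alternative run, and 6 by DESeq2 (8 for the interaction). Replicate numbers did not pair the libraries: deviations of same-numbered mutant and wild type libraries correlated at -0.0521, 0.2438 and -0.1992, and with a replicate block 0 genes passed. The count of genes without overlap, 1561, lay between 2015 and 6179 when 1 fortified library was left out. It was highest without mutant 1 and next, at 4072, without wild type 3. Smaller groups separate more easily, so leaving out a library cannot lower this count. With mutant 2 and 3 both left out the count was 8753, as 1 library has no spread.

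Of 137 named genes 118 kept their sign in all alternatives. Many of them were chosen because their groups did not overlap, so leaving out fortified libraries could hardly turn their sign. Leaving out a moderate library hardly moves the fortified group means. The count of 118 is thus largely fixed by the choice of genes. With mutant 2 and 3 left out, log2 fold changes were 0.2582 for Dcn, -0.1418 for Elavl2, 0.7826 for Fuz, -0.1603 for Gli3, -0.0705 for Gpm6a, -0.7856 for Hbb-y, 1.0639 for Lum, -0.2737 for Mylpf, -0.145 for Myog, -0.3123 for Ptch1, -0.0356 for Tnnc1 and 0.5929 for Wdpcp. With moderate wild type 1 left out too, Fuz was at 0.7825, Gpm6a at -0.0705, Hbb-y at -0.7867, Tnnc1 at -0.0357 and Wdpcp at 0.5928. With Xist as covariate, Chrdl2 was at -0.1102, Gli3 at -0.2982, Lum at 0.2778, Ptch1 at -0.1735, Smad9 at -0.0489 and Wdpcp at 0.0548. With library totals alone, Gli2 was at 0.0075, Intu at 0.0034 and Wdpcp at 0.0338. Gli3 was at -0.0597 by limma-voom (Vim 0.0425), -0.0536 and -0.0563 on TPM, -0.0002 without a filter and -0.0156 with the block on 6 libraries. Leaving out 1 library, ranges were -0.1381 to 0.0015 for Cmklr1, -1.4634 to 0.0639 for Folr1, -0.9705 to 0.1775 for Fuz, -0.2423 to 0.1763 for Gli2, -0.1937 to 0.0926 for Gli3, -0.2147 to 0.125 for Intu, -2.0818 to 0.4381 for Lum, -0.1178 to 0.6769 for Ptch1, -0.2808 to 0.1107 for Vim and -0.4902 to 0.1991 for Wdpcp. The cause was not tested. Of 48 list medians 25 changed sign without mutant 2 and 3, while collagen chains stayed between -0.78 and -0.39, other matrix proteins between -0.65 and -0.35 and matrix enzymes between -0.55 and -0.38.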
